A study of Arabidopsis thaliana with 10 samples.

Results

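Cytochrome P450 genes were followed in Arabidopsis thaliana inflorescences in which another P450, KLU (CYP78A5), was switched on. Members were the probe sets that the platform's gene table assigns to a single gene whose symbol is CYP and a digit, leaving out CYP78A9. These were 25 of 22746 probe sets. The symbol also covers cyclophilins, and 2 of the 25, CYP71 and CYP59, are cyclophilin genes in RefSeq (assembly TAIR10.1), so 23 members are P450 genes and these 2 are given apart. The 23 were mostly of a single kind, with 19 in subfamily CYP71B and 1 each in CYP51G, CYP79A, CYP84A and CYP718. They are a CYP71B set with 4 other P450s, not a survey of the whole superfamily. KLU itself is not among them, and its level was not analysed here, so induction of the transgene is taken from the labels.

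Cytochrome P450s are haem enzymes, most of them anchored in the endoplasmic reticulum, that use oxygen and electrons from a reductase to oxidise small molecules. In plants they make and break down hormones, pigments, wall and surface polymers and defence compounds. KLU stimulates the growth of leaves and floral organs, and its substrate is not settled. CYP71B enzymes act mainly in specialised metabolism, and many of their genes lie side by side as tandem copies.

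The klu-2 allele was shared by all groups, controls included, as was a transgene under the AlcA promoter, which the AlcR activator turns on in ethanol vapour. AlcR was driven by the 35S promoter, which is active in most plant cells. The transgene encoded wild-type KLU in lines 3-1 and 4-3 and a mutant KLU protein, the control of the series, in lines 1-5 and 3-2. Pooled inflorescences with young buds gave 10 arrays in 5 groups of 2, 1 array per line: wild-type KLU at 0, 90 and 240 min of vapour, and mutant KLU at 90 and 240 min. Plant age and the number of plants in a pool are not given in the sources used here. There was no uninduced mutant group, and the constructs were in different lines, so construct and line cannot be told apart. A difference from 0 min holds the effects of the transgene, of the vapour and of the hours between samples together. Values are log2 intensities, and the number of arrays limits their precision. The array medians lay between 5.94 and 6.06. Of 13 genes listed as markers of inflorescences 2 were measured under their names, CLV3 at 3.25 to 3.78 and UFO at 3.24 to 3.87, both low in the pooled tissue.

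The P450 genes lie in groups of neighbours. In the RefSeq gene order 11 of the CYP71B members fall within a stretch of 24 genes on chromosome 3, from CYP71B16 (AT3G26150) to CYP71B37 (AT3G26330), in which 18 genes carry a CYP symbol. CYP71B5, CYP71B30P and CYP71B31 lie in a second group on chromosome 3, and CYP71B27, CYP71B28 and CYP71B29 in a group on chromosome 1. The remaining CYP71B members, CYP71B6 and CYP71B38, have no other member beside them. RefSeq lists CYP71B27 and CYP51G2 as transcribed pseudogenes, and the name of CYP71B30P marks it as a pseudogene, though RefSeq lists it as protein coding. Probe sets for tandem copies can pick up transcripts of a close relative, and a further probe set shared by more than 1 CYP gene was not used.

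Inflorescences can hold pollen, and most of the measured genes listed as pollen markers differed between arrays. Of 16 listed pollen genes 6 were measured under their names, TUA1, AGL30, AGL65, AGL66, AGL94 and AGL104. AGL94 stayed at 2.77 to 3.01, and the others ranged from 3.09 to 10.49. At 0, 90 and 240 min the mean of all 6 was 5.30, 6.19 and 5.66 for line 3-1, and 4.77, 5.34 and 5.30 for line 4-3. With mutant KLU it was 5.08 (line 1-5) and 5.53 (line 3-2) at 90 min, and 5.05 (line 1-5) and 5.15 (line 3-2) at 240 min. The constructs overlapped in this mean at 90 min and not at 240 min, when both wild-type arrays were higher, but the 6 genes did not move alike. TUA1, a pollen tubulin gene, read 10.11 to 10.49 on the induced wild-type arrays and 8.09 to 9.35 on the others, and AGL30 read 6.84 to 7.09 against 4.96 to 5.98. The other 4 genes did not divide the arrays in this way. At 240 min AGL65 was lower with wild-type KLU, at 5.04 and 5.10 against 5.19 on both mutant arrays, and AGL66, AGL94 and AGL104 overlapped between constructs. On the induced arrays of line 4-3 AGL66 read 3.66 and 3.63, below every other array, and AGL104 read 3.09 and 3.24. The part of pollen in the differences between groups was not tested, and fewer cells of a type and less RNA per cell cannot be told apart in pooled tissue.

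Many of the P450 genes gave low, flat signals. On all 10 arrays 11 of 23 stayed under 4, which 21.3% of all probe sets did, while the lower quartile of the arrays was 3.78 to 3.95. The 11 were CYP71B16, CYP71B21, CYP71B24, CYP71B25, CYP71B36 and CYP71B37 of the large chromosome 3 group, CYP71B5 and CYP71B30P of the small group, CYP71B27 and CYP71B29 of chromosome 1, and CYP79A2. The values have no detection call, so a low value is not evidence that a transcript was absent, and it leaves little room to see a decrease. CYP79A2, which turns phenylalanine into an aldoxime on the way to benzylglucosinolate, ranged from 3.06 to 3.36. CYP51G2, a relative of the sterol 14-demethylase gene, ranged from 3.97 to 4.30, and CYP718 from 4.19 to 4.53. Over the 10 arrays 6 of the 23 genes spanned more than 1 log2 unit, 26.1% against 28.0% of all probe sets, and 3 spanned more than 2, which 6.25% of all probe sets did. These 3 were CYP71B22, CYP71B23 and CYP71B31, and the other genes above 1 were CYP71B28, CYP71B34 and CYP71B26.

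**Figure D1:**
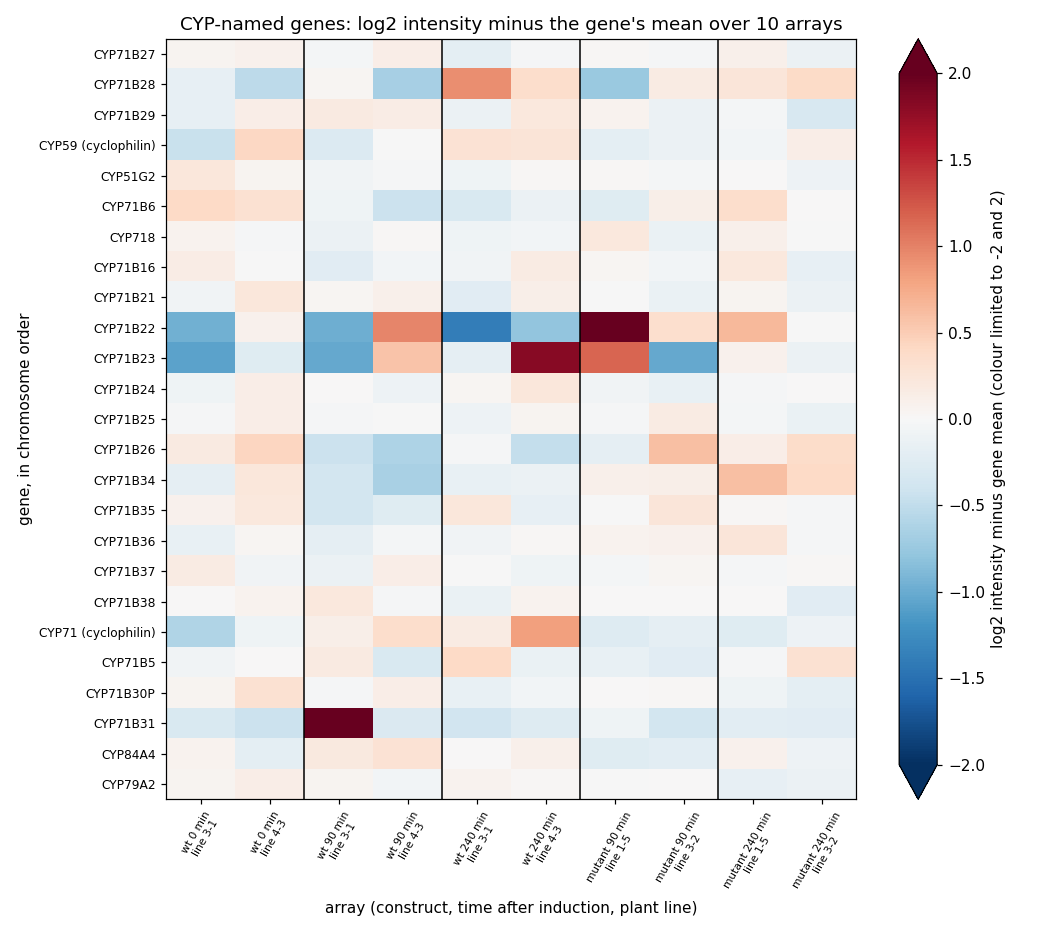
Deviation of each gene's log2 intensity from its own mean over the 10 arrays, with genes in chromosome order as rows and arrays as columns, in 5 groups divided by black lines. CYP71B22 and CYP71B23 vary across arrays and lines, CYP71B31 stands out on the wild-type KLU array of line 3-1 at 90 min, and most other rows are pale.

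Wild-type and mutant KLU were compared at equal vapour times, which sets the working enzyme against its control. At 240 min 0 of the 23 P450 genes passed an adjusted p of 0.05 in limma's moderated test, against 1.13% of all probe sets, and 1 had an unadjusted p under 0.05, against 13% of all probe sets. The median difference over the 23 was 0.02, and over all probe sets 0.00. CYP71B34, of the large chromosome 3 group, had the smallest p. It read 5.69 and 5.72 with wild-type KLU in lines 3-1 and 4-3, and 6.45 and 6.24 with mutant KLU in lines 1-5 and 3-2. Both wild-type arrays were below both mutant arrays, on average by 0.64 log2 units or 1.56-fold (SE 0.17, n = 2 arrays each, limma's adjusted p = 0.152). The 95% interval of that difference ran from -1.04 to -0.24. CYP71B6, whose enzyme acts on indole-3-acetonitrile in the indole pathway of defence, read 6.76 and 6.95 with wild-type and 7.41 and 7.07 with mutant KLU, a difference of -0.39 (limma's adjusted p = 0.497). CYP71B26 read 6.23 and 5.78 against 6.39 and 6.62, a difference of -0.50 with limma's adjusted p at 0.538. The groups did not overlap for 8 of the 23 genes, 2 higher and 6 lower with wild-type KLU. Of all probe sets 41.1% did not overlap, 21% higher and 20.1% lower.

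Among the P450 genes the point estimate at 240 min was most negative for CYP71B22, at -1.41, and most positive for CYP71B23, at 0.83. CYP71B22 read 5.15 and 5.73 with wild-type and 7.18 and 6.52 with mutant KLU, so the groups did not overlap. Its 95% interval still ran from -3.19 to 0.37, and its arrays differed widely within groups (limma's adjusted p = 0.539). For 17 of the 23 genes the 95% interval lay within 1 log2 unit of no difference on either side, as it did for 77.3% of all probe sets. For low signals the interval covers the measured intensities, which can understate a change in transcript.

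At 90 min 0 of the 23 genes passed in the same comparison, where 0.0044% of all probe sets did, and 4 had an unadjusted p under 0.05, against 5.86% of all probe sets. Again CYP71B34 had the smallest p. The wild-type arrays read 5.47 and 5.20 and the mutant arrays 5.95 and 5.96, a difference of -0.62 (SE 0.17, limma's adjusted p = 0.373). The 2 times share their lines, so the repeat at 90 min does not add independent plants. CYP71B26 read 5.83 and 5.64 against 6.08 and 6.85, a difference of -0.73, and CYP71B35, next to CYP71B34, read 4.43 and 4.56 against 4.79 and 5.04, a difference of -0.42. These 3 genes of the large chromosome 3 group had both wild-type arrays below both mutant arrays, with limma's adjusted p at 0.373 to 0.755. CYP84A4, which takes part in making arabidopyrones, alpha-pyrones of the phenylpropanoid pathway, went the other way. It read 4.78 and 4.87 with wild-type and 4.34 and 4.36 with mutant KLU, a difference of 0.48 or 1.39-fold (SE 0.14, limma's adjusted p = 0.424). At 240 min the difference of CYP84A4 was 0.06. The groups did not overlap for 8 of the 23 genes, 3 higher and 5 lower with wild-type KLU, against 27.7% of all probe sets, 13.5% higher and 14.3% lower.

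With the 90 and 240 min arrays of a line averaged, the test set the 2 wild-type KLU lines against the 2 mutant KLU lines. Of the 23 P450 genes 0 passed limma's test, as did 0% of all probe sets, and 1 had an unadjusted p under 0.05, against 9.71% of all. That gene was CYP71B34, with -0.63 (SE 0.12, limma's adjusted p = 0.228). An interaction term tested if the construct difference at 240 min departed from that at 90 min. There 0 of the 23 passed in limma, as did 0% of all probe sets, and 0 had an unadjusted p under 0.05, against 2.65% of all. The smallest p among the members belonged to CYP84A4, with -0.42 (limma's adjusted p = 1.00).

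By gene order, at 90 min between constructs the 11 genes of the large chromosome 3 group had a median difference of -0.19, from -1.21 for CYP71B22 to 0.15. The median over all probe sets was -0.01. At 240 min the median of the same 11 genes was -0.025, against 0.00 over all probe sets. At 90 min the chromosome 1 group ranged from -0.02 to 0.19, and the small chromosome 3 group from 0.04 to 1.34, the last being CYP71B31. At 240 min the ranges were -1.41 to 0.83 in the large group, -0.10 to 0.34 in the chromosome 1 group and -0.11 to 0.04 in the small group. CYP71B36 and CYP71B37, which follow CYP71B35 in gene order, ranged over all arrays from 2.76 to 3.18 and from 3.34 to 3.62. Of the 4 P450s outside CYP71B, only CYP84A4 had an unadjusted p under 0.05 between constructs, at 90 min.

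**Figure D2:**
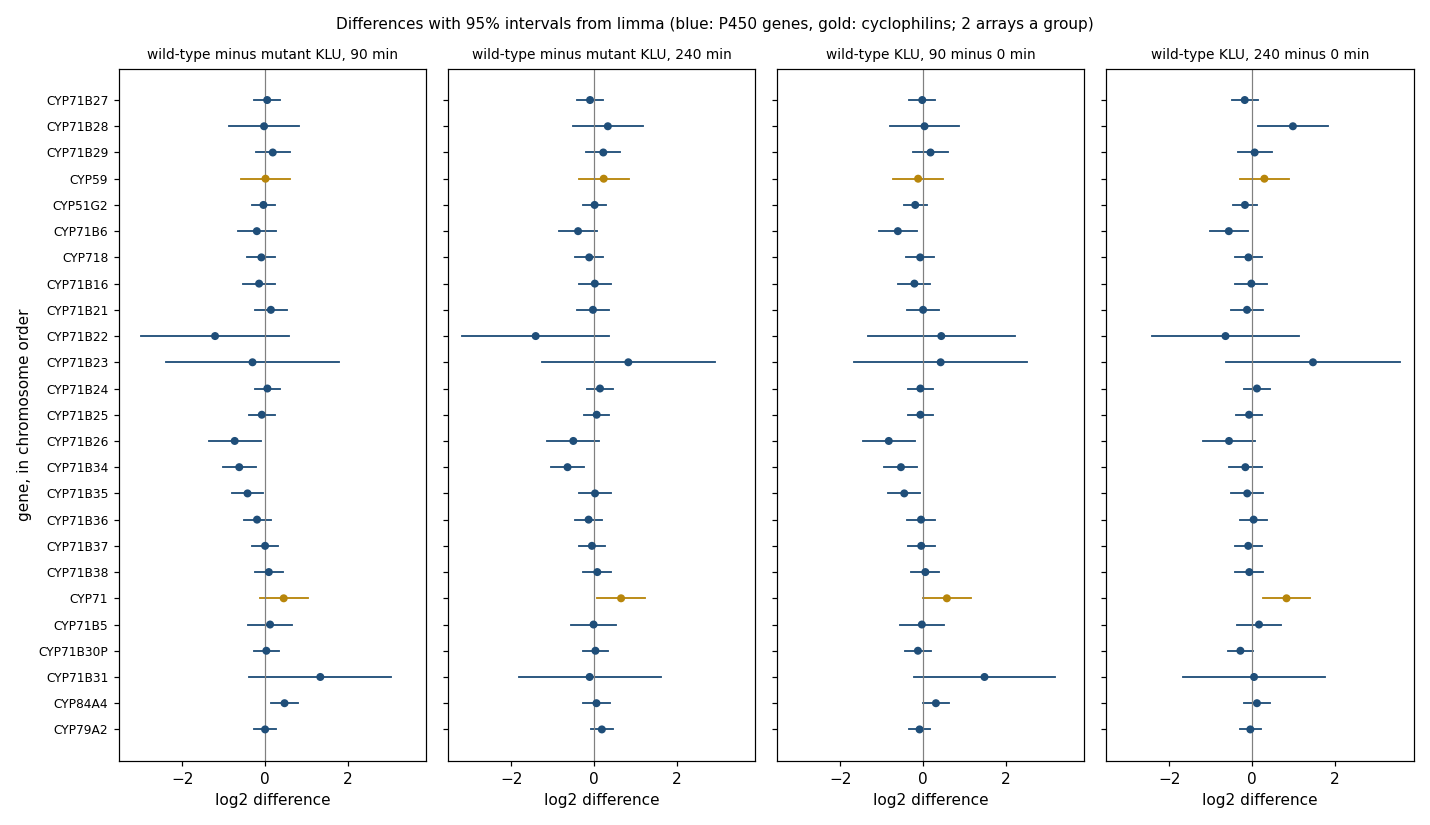
Log2 difference of each gene (points) with its 95% interval from limma (bars) in 4 comparisons of 2 arrays a group, P450 genes in blue and cyclophilins in gold. The intervals of CYP71B22, CYP71B23 and CYP71B31 are wide, and CYP71B34 lies left of 0 in both comparisons of wild-type with mutant KLU, at -0.62 and -0.64.

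Wild-type KLU at 90 min was compared with the same lines at 0 min. In limma's test 0 of the 23 genes passed, against 1.62% of all probe sets, and 4 had an unadjusted p under 0.05, against 11.6%. The groups did not overlap for 9 of 23, against 34% of all probe sets. The 4 genes with an unadjusted p under 0.05 were all lower at 90 min. CYP71B26 read 6.44 and 6.69 at 0 min and 5.83 and 5.64 at 90 min in lines 3-1 and 4-3, a change of -0.83 or 1.78-fold (SE 0.27, limma's adjusted p = 0.259). With the line as a block limma's adjusted p of CYP71B26 was 0.101. CYP71B6 went from 7.47 and 7.37 to 6.98 and 6.64, a change of -0.61 (SE 0.20, limma's adjusted p = 0.247). CYP71B34 went from 5.67 and 6.07 to 5.47 and 5.20, and CYP71B35 from 4.89 and 5.01 to 4.43 and 4.56. In each of these genes both lines were lower at 90 than at 0 min. In line 4-3 the change was -1.05 for CYP71B26 and -0.87 for CYP71B34, and in line 3-1 it was -0.61 and -0.20. The same 2 induced arrays enter the comparison of constructs at 90 min. With mutant KLU at 90 min against the uninduced wild-type lines, the same genes differed by -0.10 for CYP71B26, 0.09 for CYP71B34, -0.04 for CYP71B35 and -0.42 for CYP71B6.

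Wild-type KLU at 240 min against 0 min again gave 0 of 23 in limma's test, while 6.82% of all probe sets passed, and 2 had an unadjusted p under 0.05, against 22.1%. The groups did not overlap for 8 of 23, against 50% of all probe sets. CYP71B28, of the chromosome 1 group, was higher at 240 min. It read 6.56 and 6.20 at 0 min, 6.77 and 6.06 at 90 min and 7.66 and 7.07 at 240 min in lines 3-1 and 4-3. The change from 0 to 240 min was 1.1 in line 3-1 and 0.87 in line 4-3, on average 0.99 or 1.98-fold (SE 0.36, limma's adjusted p = 0.163). With the line as a block, which removes the constant gap between the lines, SE was 0.20 and CYP71B28 passed with limma's adjusted p at 0.0279. The block also raised the number of all probe sets that passed, from 1551 to 2689 of 22746. With mutant KLU CYP71B28 read 5.98 and 6.89 at 90 min and 6.96 and 7.10 at 240 min in lines 1-5 and 3-2. At 240 min the constructs differed in CYP71B28 by 0.34, with a 95% interval from -0.51 to 1.18. Its neighbour CYP71B29 stayed between 2.99 and 3.52 on all 10 arrays. CYP71B6 was lower at 240 than at 0 min in both lines, with a change of -0.57 (limma's adjusted p = 0.141), while CYP71B34 and CYP71B35 were nearer their values at 0 min, with -0.17 and -0.12.

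Mutant KLU against the uninduced wild-type lines shows vapour and time without the active enzyme, in other lines. In limma's test 0 of 23 genes passed at 90 min, where 0.0396% of all probe sets did, and 0 had an unadjusted p under 0.05, against 6.6%. The groups did not overlap for 10 of 23, against 33.4% of all probe sets. At 240 min 0 of 23 passed, where 0.154% did, and 2 had an unadjusted p under 0.05, against 7.76%. These were CYP71B34 with 0.48 and CYP71B30P with -0.32 (limma's adjusted p = 0.511 and 0.623), and the groups did not overlap for 9 of 23, against 37.5%. CYP71B22 was 1.65 higher with mutant KLU at 90 min than in the uninduced lines (SE 0.76, limma's adjusted p = 0.789). Without the array of line 1-5 the difference was 0.78, and without that of line 3-2 it was 2.52. Leaving out line 3-1 or line 4-3 at 0 min gave 1.12 or 2.17.

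Between 90 and 240 min the arrays of the same lines were compared. With wild-type KLU 0 of 23 passed limma's test, as did 0% of all probe sets, and 1 had an unadjusted p under 0.05, against 10.2%. That gene was CYP71B28, 0.95 higher at 240 min (limma's adjusted p = 0.449). The groups did not overlap for 6 of 23, against 35.2%. With mutant KLU 0 of 23 passed, as did 0% of all probe sets, and 0 had an unadjusted p under 0.05, against 2.15%. There the groups did not overlap for 8 of 23, against 27.2%. CYP71B34 was higher at 240 than at 90 min in all 4 lines, by 0.22 and 0.52 in lines 3-1 and 4-3 and by 0.50 and 0.28 in lines 1-5 and 3-2.

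CYP71B22 and CYP71B23, adjacent genes of the large chromosome 3 group, had the largest mean differences between lines of a construct. CYP71B22 read 5.56, 5.55 and 5.15 across 0, 90 and 240 min for line 3-1, and 6.61, 7.50 and 5.73 for line 4-3. With mutant KLU it read 8.60 and 7.18 at 90 and 240 min in line 1-5, and 6.86 and 6.52 in line 3-2. Line 4-3 was above line 3-1 at each time, by 1.05, 1.95 and 0.58. Line 3-2 minus line 1-5 was -1.74 and -0.66 at 90 and 240 min. CYP71B23 read 3.30, 3.34 and 4.18 in line 3-1 and 4.13, 4.94 and 6.19 in line 4-3, and 5.53 and 4.46 in line 1-5 against 3.35 and 4.25 in line 3-2. The same lines were the higher ones at each time, by 0.83, 1.60 and 2.01 for wild-type KLU, and line 3-2 minus line 1-5 was -2.18 and -0.21. The spread within groups was 0.93 for CYP71B22 and 1.1 for CYP71B23 (SD), larger than that of 98.2% and 98.8% of all probe sets. CYP71B21, on the other side of CYP71B22, stayed between 2.82 and 3.26. From 90 to 240 min CYP71B22 was lower in all 4 lines, with changes from -1.77 to -0.34, while CYP71B23 was higher in lines 3-1, 4-3 and 3-2 and lower in line 1-5. Each line is a single transformant, so the line differences are described without a test. At every time the line with the higher CYP71B22 and CYP71B23 values had the lower mean of the pollen genes given above. With mutant KLU at 240 min the means were close, at 5.05 and 5.15. The single pollen genes did not all follow the mean. At 240 min TUA1 and AGL65 were higher in line 4-3 than in line 3-1, and the other pollen genes lower. With mutant KLU AGL66 was then higher in line 1-5 than in line 3-2, AGL65 equal and the others lower. The part of pollen in these differences was not tested.

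The next largest mean line difference was that of CYP71B31 in the wild-type lines, -0.94, from a difference of -2.82 at 90 min beside -0.13 and 0.12 at 0 and 240 min. Among the genes that kept their direction at each time CYP71B28 came next. Line 4-3 minus line 3-1 was -0.36, -0.71 and -0.59 for CYP71B28 at 0, 90 and 240 min, and line 3-2 minus line 1-5 was 0.91 and 0.14. CYP71B26 was higher in line 3-2 than in line 1-5, on average by 0.50. For the wild-type lines 4 of the 23 P450 genes had all arrays of a line above all arrays of the other, against 18.9% of all probe sets, where each line had 3 arrays. For the mutant lines, with 2 arrays each, it was 11 of 23, against 44.3%.

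CYP71B31 was high on a single array. Its enzyme oxidises the flower scent compound linalool. It read 5.87 with wild-type KLU in line 3-1 at 90 min and 2.91 to 3.26 on the other 9 arrays, among them 3.04 and 2.96 in the same line at 0 and 240 min. The gap of 2.61 to the next array was the largest of any probe set with its highest value on that array. The same array had the highest pollen mean of the 10, 6.19, and its part in the CYP71B31 value was not tested. At 90 min the mean difference of CYP71B31 from mutant KLU was 1.34 (SE 0.74, limma's adjusted p = 1.00), and without that array it was -0.07. Against 0 min it was 1.49 (SE 0.74, limma's adjusted p = 0.529), and without that array it was 0.08. Leaving out the other array of the group, line 4-3 at 90 min, makes the value of line 3-1 stand for the whole group, assumed to vary like the other groups. The difference of CYP71B31 was then 2.75 against mutant KLU, 2.90 against 0 min and, at 240 min against 90 min, -2.85. Each of these rests on a single array for the 90 min group. CYP71B5 and CYP71B30P, the other members of its gene group, read 3.59 and 2.99 on the array of line 3-1 at 90 min, within their ranges of 3.11 to 3.81 and 2.81 to 3.31.

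**Figure D3:**
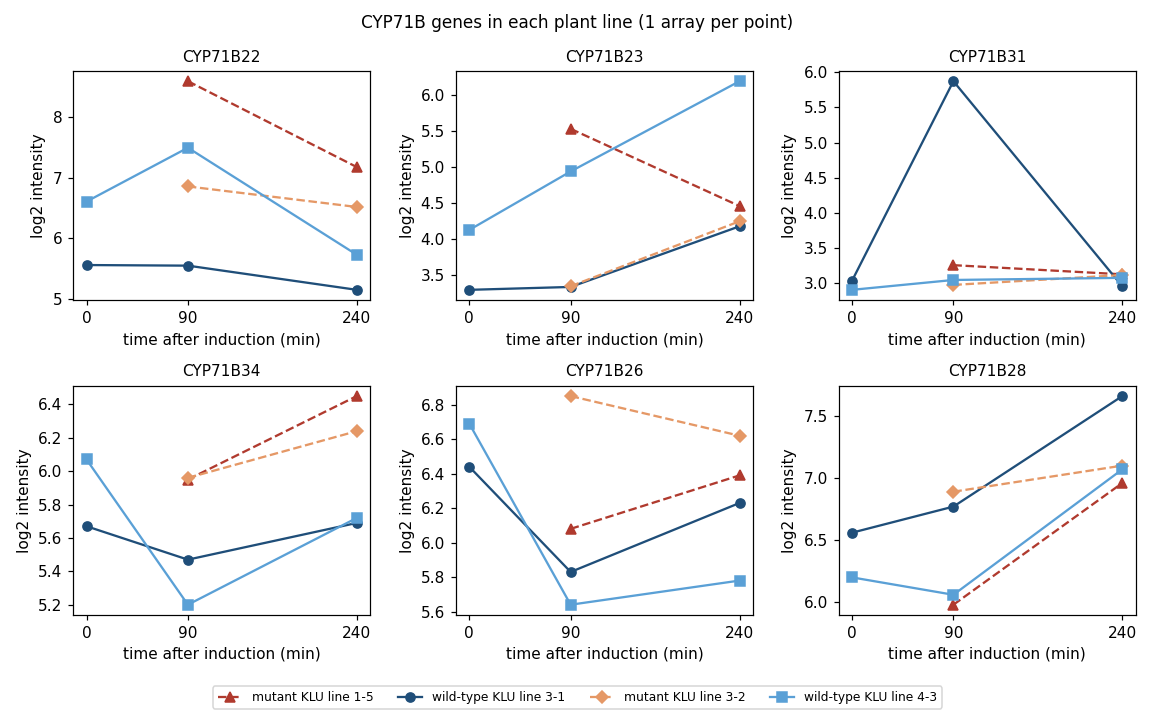
Log2 intensity of 6 CYP71B genes against time after induction, 1 array per point, with a colour and marker for each plant line, solid for wild-type and dashed for mutant KLU. CYP71B31 reaches 5.87 in line 3-1 at 90 min, and CYP71B28 ends above its 0 min value in both wild-type lines. Within each construct CYP71B22 and CYP71B23 are higher in the same line at every time, though the lines overlap across times for CYP71B23 with wild-type KLU.

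The cyclophilin genes in the symbol set are peptidyl-prolyl isomerases and no P450s. CYP71, a WD40 cyclophilin that acts on chromatin, read 7.36 and 7.87 at 0 min, 8.07 and 8.31 at 90 min and 8.12 and 8.77 at 240 min with wild-type KLU in lines 3-1 and 4-3. With mutant KLU it read 7.70 and 7.77 at 90 min and 7.72 and 7.86 at 240 min in lines 1-5 and 3-2. All 4 induced wild-type arrays were above all other arrays. Of the 6 pollen genes TUA1 and AGL30 divided the arrays in the same way and the other 4 did not, and the part of pollen in the CYP71 values was not tested. The change from 0 to 240 min was 0.83 (SE 0.25, limma's adjusted p = 0.0954). With the line as a block it passed with limma's adjusted p at 0.0162, as did 2689 of 22746 probe sets at the threshold of 0.05. The difference from mutant KLU was 0.66 at 240 min (SE 0.25, limma's adjusted p = 0.310) and 0.46 at 90 min. CYP59, a cyclophilin with an RNA-binding domain, ranged from 5.47 to 6.33 and had 0.24 as its difference between constructs at 240 min.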

How the data were processed

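Total RNA from pooled inflorescences was biotin-labelled and hybridised to 10 Affymetrix arrays. RMA, a method that removes background, puts arrays on a common scale and joins the probes of a set, is named in the submitters' processing notes. The deposited values, in log2, were used as the authors gave them, without a filter. RMA shrinks differences among low signals. No batch or scan date is given in the sources used here.

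Of 22810 probe sets 64 controls were left out. The gene table names 1 gene for 13513 of the rest, several for 503 and is silent on 8730. The 25 members matched RefSeq (TAIR10.1), used for names and gene order. Groups came from the sample titles. Differences were tested two-sided with limma 3.58.1 (R 4.3.3). The fit held all 10 arrays and a mean for each group, with Benjamini-Hochberg adjustment over 22746 probe sets and a threshold of 0.05. The fit was tested on simulated data for wild-type KLU at 240 against 0 min, with noise that held no gap between lines. It called 0.6% of the changes of 0.5 log2 units, 43% of those of 1 and 88.6% of those of 2. Changes of 1 log2 unit or less were thus missed more often than called. A line recurs at each time of its construct, which pairs arrays through their line. Over probe sets, which are not independent, the gap between lines at different times had correlations of 0.348 to 0.633. Blocked values are given where they change a call.

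Members and lists were chosen with earlier results of these data known. Named genes are the 3 members with the smallest p in each comparison, since fewer than 3 passed in each, the members of 12 pathway lists, of whose 99 genes 3 (CYP79A2, CYP84A4, CYP71B31) were measured, the member of family CYP71 with the largest range of group means, and for each construct the 5 largest mean line differences among members with the same direction at every time. Other genes were named after their values were seen. Levels of different probe sets were not ranked. Of other marker lists 1 of 13 tapetum genes (AMS, 4.11 to 4.95), 1 of 7 leaf genes (RCA, 12.15 to 13.07) and 0 of 6 root and 0 of 9 heat stress genes were measured under their names. Figures were drawn with matplotlib 3.10.9.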

Additional observations from a re-analysis of the deposited data

How the results depend on the processing

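The 10 comparisons each called 0 of the 25 members, and they were repeated with the line as a block, with the compared groups alone (not for the interaction or the comparison over both times), among probe sets above the median level, with arrays centred on their medians, with quantile normalization, with trended and robust variances (not over both times) and without each array or, over both times, each line, a choice made after seeing the data. The count was the same in 147 of 151 repeats. In the main fit 0 of 22746 probe sets passed for either construct at 240 against 90 min, for the interaction and over both times. Between constructs at 90 min 1 passed. In these comparisons a count of members could hardly differ from 0, so their repeats say little of the members. With the line as a replicate block 2 of the 25 members passed for wild-type KLU at 240 against 0 min, CYP71B28 (0.99) and the cyclophilin CYP71 (0.83). In that fit 2689 of 22746 probe sets passed, against 1551 without the block. The block changed no other call among the members. The other changed counts came from CYP71B31 without the array of line 4-3 at 90 min, where line 3-1 stood alone for its group. The wild-type differences of CYP71B31 were then 2.75 against mutant KLU at 90 min, 2.90 for 90 against 0 min and -2.85 for 240 against 90 min. Of 437 repeats of named changes 435 kept their direction and stayed short of the threshold, and the other 2 were the blocked values of CYP71B28 and CYP71. Many of these repeats could not change a direction. The block, the variance settings, the level filter, the compared groups alone and arrays outside the compared groups leave the difference itself unchanged. Only another scaling or the loss of a compared array could move it. Among probe sets above the median level 5 of the 25 members remained, so that filter says nothing of the other 20. With 2 arrays a group the 95% intervals of the P450 genes reached 0.26 to 2.09 log2 units to either side of a difference between groups. For the interaction they reached 0.37 to 2.96.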

Other observations

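On the array on which CYP71B31 was high, wild-type KLU in line 3-1 at 90 min, 86 of 22746 probe sets exceeded every other array by more than 1 log2 unit, and CYP71B31 alone did so by more than 2. The genes described here were chosen after their values were seen. SWEET9, which encodes the sucrose transporter of nectaries, read 8.99 on that array, 7.30 in the same line at 240 min and 4.16 to 6.11 on the others. SWEET14, a sugar transporter gene active in anthers, read 9.52 there and 4.92 to 7.94 elsewhere. SWEET13, its close relative, read 9.08 there and 4.40 to 7.88 elsewhere. SWEET9, SWEET13 and SWEET14 were all higher in line 3-1 than in line 4-3 at every time. At 0 and 240 min SWEET14 read 7.06 and 7.65 in line 3-1, and 4.92 at both times in line 4-3. SWEET13 read 7.52 and 7.88 in line 3-1, and 5.66 and 4.40 in line 4-3. CYP71B31 was not high in line 3-1 at those times, with 3.04 at 0 min and 2.96 at 240 min.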
